A study of Mus musculus with 6 samples.

Results

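Forkhead transcription factors were followed in hair germ stem cells sorted from mouse back skin. The members were all genes whose symbol is Fox, a letter and a number, which gave 44 genes of 46517 listed. The cells came from animals of postnatal day 60, 3 days after hair had been pulled out to start a new growth phase, and the tissue carries mixed sexes in its labels. Every animal carried Sox9-CreER and R26-lox-stop-lox-YFP, so Cre was present in the controls too. WT had only these alleles, LEF1cKO added Lef1fl/fl, and LEF1_TCF7dKO, called the double knockout below, added Lef1fl/fl and Tcf7-/-. The CreER protein is made in cells with an active Sox9 promoter and acts only once induced. The Tcf7 allele, in contrast, is null in every cell of the animal. Each of the 3 groups held 2 RNA-seq libraries. Whether the libraries of a group stem from different animals is not labelled, so each p-value speaks of spread among libraries and that spread may be technical.

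Forkhead proteins share a winged-helix DNA-binding domain and differ outside it. In hair follicles, Foxc1 and Foxp1 are known for holding stem cells quiescent, Foxe1 and Foxi3 for the growing follicle and its placode, and Foxn1 and Foxq1 for the hair shaft. Foxm1 switches on genes of mitosis, and most FoxO proteins are kept out of the nucleus when insulin and growth factor signals activate AKT. The products of Lef1 and Tcf7 bind DNA and recruit beta-catenin when Wnt signals.

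Library totals ran from 40480694 to 63220022 expected counts. Levels are given in TPM, which accounts for transcript length and library size. Lef1 itself was read at 21.4 and 20.4 TPM for WT, 13.5 and 8.37 for LEF1cKO and 9.22 and 9.42 for the double knockout. Reads outside the deleted exons still count toward a gene, and the Lef1 value in LEF1cKO did not pass the test (log2 fold change -0.92 ± 0.25 SE, edgeR adjusted p = 0.282). For Tcf7 the levels were 26.9 and 36.0 TPM for WT, 29.3 and 27.8 for LEF1cKO and 13.7 and 18 for the double knockout. All 11 genes listed for the hair germ and the sort were read in every library. The double knockout had 4 higher and 5 lower than WT past the test, where 18% of all genes rose and 19.6% fell. Among these Cd34 and Ly6a (the Sca-1 gene), both used in the sort, rose from 11.1 ± 3.35 and 20.6 ± 8.36 TPM to 36.4 ± 7.81 and 104 ± 9.76 (SD, n = 2). Lhx2 and Sox9 of the same list fell from 358.9 ± 31.3 and 55.95 ± 5.11 TPM to 156.2 ± 59.35 and 37.61 ± 5.81 (edgeR adjusted p = 0.0118 and 0.0198). Without WT replicate 2 these counts were 0 and 1, without WT replicate 1 they were 2 and 2, and without double knockout replicate 1 they were 0 and 2. Markers of other cells were also read in every group, and their levels are given beside the genes they concern.

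Of the 44 forkhead genes, 21 reached a group mean of 1 TPM and 27 passed the filter on low counts and were tested. Summed over the family, levels were 427 and 437 TPM for WT, 472 and 479 for LEF1cKO and 453 and 492 for the double knockout. The total thus moved little while its makeup differed. Foxm1 had the highest level in both WT libraries (84.4 and 85.3 TPM) and both LEF1cKO libraries, and made up 19.8% and 19.5% of the family total in WT against 10.5% and 8.15% in the double knockout. There, Foxn3 led in replicate 1 (48.2 TPM) and Foxi3 in replicate 2 (59.7 TPM). The remaining 17 genes, among them Foxa1, Foxa2 and Foxa3 of endoderm and its organs, Foxf1 and Foxf2 of mesenchyme, Foxi1, Foxl1 and Foxl2, had at most 8.28 expected counts and 0.11 TPM in any library, and Foxa2, Foxb2, Foxi1 and Foxl2 were at 0 in all 6. At these depths 3 counts, set as an approximate bound for a count of 0 from counting error, equal 0.0475 to 0.0741 CPM (counts scaled to library size).

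**Figure D1:**
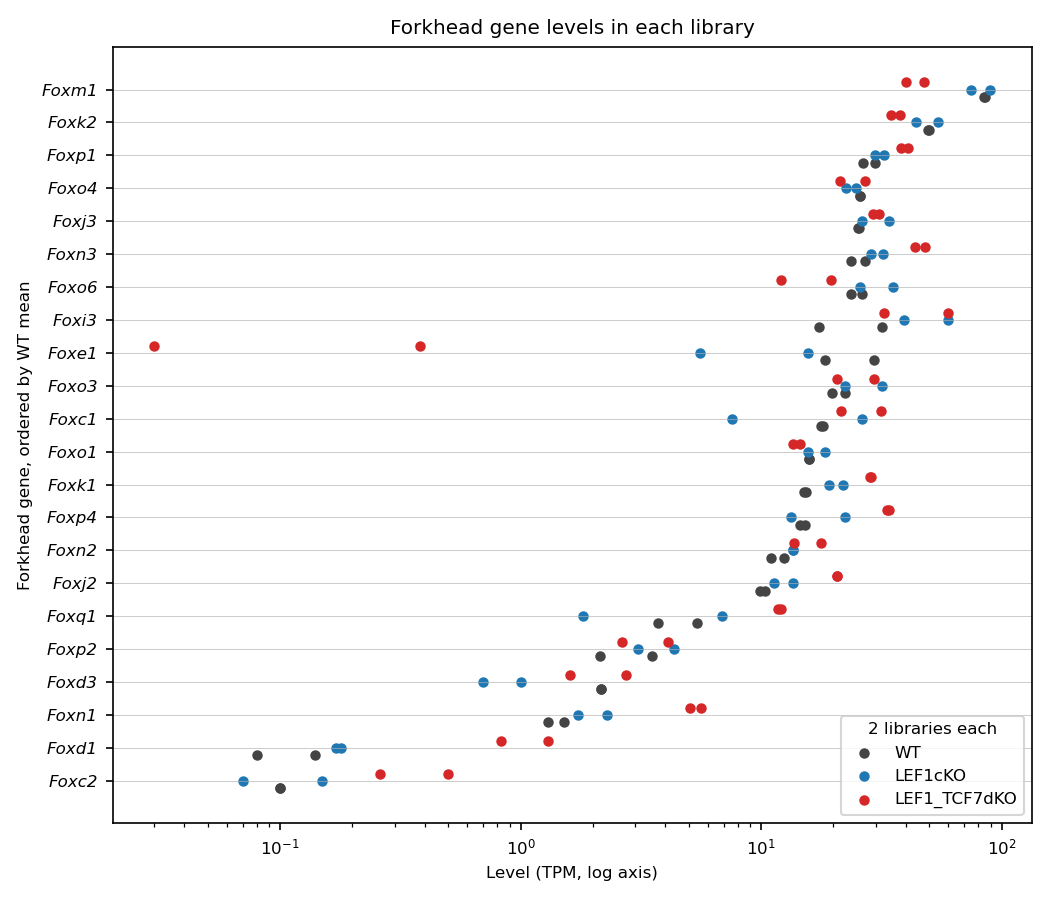
Level of 22 forkhead genes in each library in TPM on a log axis, ordered by the WT mean, with 2 points per group (WT grey, LEF1cKO blue, double knockout red). Foxe1 falls to 0.03 and 0.38 TPM in the double knockout, while Foxn1, Foxj2, Foxk1 and Foxp4 have both double knockout points above all others.

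Against WT, 0 forkhead genes passed the test in the LEF1cKO libraries by edgeR and 11 did in the double knockout libraries. In LEF1cKO against WT 0 of 27 passed by edgeR (quasi-likelihood test, Benjamini-Hochberg adjusted p under 0.05), where 0.601% of all 19640 genes tested passed (0.224% up, 0.377% down). At an unadjusted p under 0.05 there were 2, Foxd3 and Foxk1, where 9.58% of all genes reached it, and DESeq2 called 1 fall, Foxd3. In the double knockout against WT 8 members rose and 3 fell, which is 40.7% of those tested and close to the 37.6% of all genes called (18% up, 19.6% down). The members' median log2 fold change was 0.41, against 0.01 over all genes. Against LEF1cKO 7 rose and 4 fell, 40.7% again, beside 25.2% of all genes (11.2% up, 14.1% down), with medians of 0.13 and 0.01. Each pair of comparisons shares a group of libraries, so they are not independent. The shares of all genes, 18% up and 19.6% down, also stand beside each list count given below for the double knockout against WT.

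**Figure D2:**
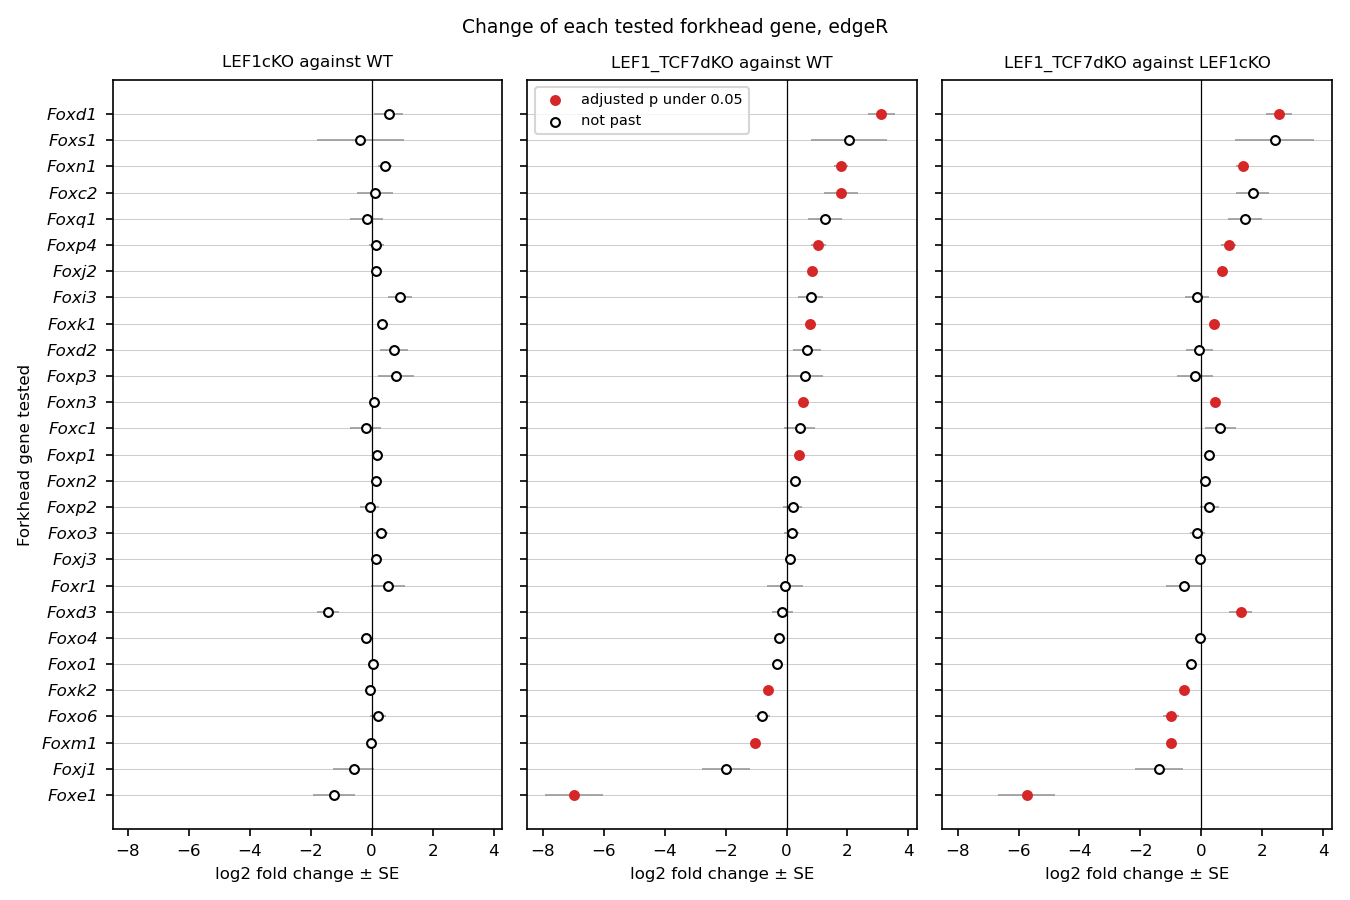
log2 fold change ± SE (edgeR) of the 27 tested forkhead genes in the 3 comparisons, with filled red points for adjusted p under 0.05 and open points otherwise. The LEF1cKO panel has 0 filled points, and Foxe1 at -6.96 and Foxd1 at 3.11 lie farthest out in the double knockout against WT.

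Foxe1 showed the largest change of the family. It encodes a factor first known from the thyroid, and in follicles it is a target of hedgehog signalling. Its level was 29.5 and 18.4 TPM for WT, 15.7 and 5.57 for LEF1cKO and 0.03 and 0.38 for the double knockout. The 3 groups did not overlap, and the double knockout libraries held 2 and 27 expected counts where WT held 2701 and 1983. Against WT the fall was 6.96 on the log2 scale (SE 0.96, edgeR adjusted p = 0.00519), and it passed in all 6 fits that left out 1 library (highest adjusted p = 0.0355). Its size was less certain, at -9.72 without double knockout replicate 2, where the 2 counts of replicate 1 stand alone, and -6.07 without replicate 1. In LEF1cKO the value was -1.22 ± 0.68 (adjusted p = 0.674).

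Foxe1 lies at chr4:46343609-46346412 on the plus strand (GENCODE M21, mm10). The antisense gene Gm12446 (chr4:46300007-46345515, minus strand) overlaps it, and the sources used here do not say that the counting used strand. Gm12446 moved with it, at 25.3 and 15.5 TPM for WT, 6.26 and 3.97 for LEF1cKO and 0.13 and 0.45 for the double knockout (-6.24 ± 0.64 against WT, adjusted p = 0.0034). Without strand, reads from the stretch that both cover cannot be told apart, while each gene also has bases outside it. Shh, the hedgehog ligand gene of the hair germ list, stood at 13.1 ± 0.919 TPM for WT, 8.64 ± 1.53 for LEF1cKO and 5.94 ± 0.0707 for the double knockout (SD, n = 2). It fell as well (-1.28 ± 0.15, edgeR adjusted p = 0.00409), and its relation to the Foxe1 value was not tested. In sorted bulk samples, fewer cells of a kind and less RNA per cell cannot be told apart.

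**Figure D3:**
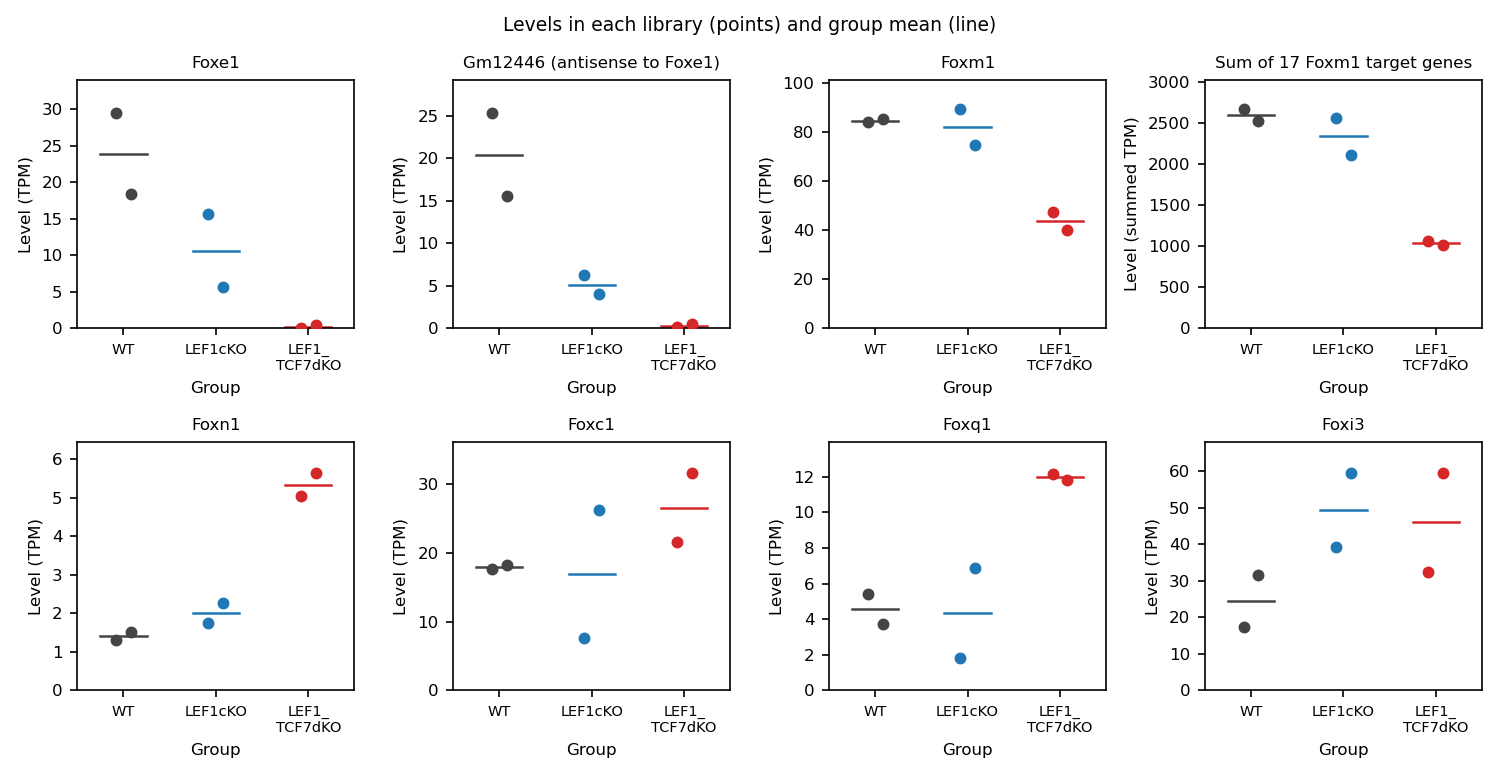
Levels in TPM per library (points) with the group mean (line) for Foxe1, its antisense neighbour Gm12446, Foxm1, the summed TPM of 17 Foxm1 target genes, Foxn1, Foxc1, Foxq1 and Foxi3. Foxe1 and Gm12446 step down from WT to LEF1cKO to the double knockout, Foxm1 and its targets are lowest in the double knockout, and Foxc1 and Foxq1 are spread widely between the LEF1cKO libraries.

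Foxm1, the mitotic member, fell with its targets in the double knockout. Its levels were 84.4 and 85.3 TPM for WT, 89.7 and 74.8 for LEF1cKO and 47.6 and 40.1 for the double knockout. Both double knockout libraries lay below all others, while WT and LEF1cKO overlapped. The fall against WT was 1.04 on the log2 scale (SE 0.13, edgeR adjusted p = 0.00455) and passed in all 6 leave-one-out fits (highest adjusted p = 0.037). In LEF1cKO the value was -0.04 ± 0.13 (adjusted p = 0.973).

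All 17 genes listed as Foxm1 targets were lower in the double knockout than in WT past the test (median log2 fold change -1.44), and 16 or 17 fell in each leave-one-out fit. Cenpa, the centromeric histone gene, went from 197 ± 5.69 to 86.2 ± 4.09 TPM (SD, n = 2). Skp2, which encodes a ubiquitin ligase subunit that degrades cell cycle inhibitors, went from 23.8 ± 0.0354 to 9.95 ± 0.0354 TPM. Birc5, the survivin gene, went from 158 ± 4.67 to 57.4 ± 3.61 TPM. In LEF1cKO 0 of the 17 passed by edgeR. Their summed level was 2666 and 2525 TPM for WT, 2566 and 2110 for LEF1cKO and 1066 and 1016 for the double knockout. The listed targets and Foxm1 were thus both lowest in the same libraries, and their relation was not tested.

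Foxn1 rose in the double knockout, and Foxq1 and Foxi3 did not pass. Foxn1, whose loss gives the nude mouse, stood at 1.30 and 1.51 TPM for WT, 1.74 and 2.28 for LEF1cKO and 5.05 and 5.64 for the double knockout. The groups did not overlap, and Foxn1 rose against WT (1.79 ± 0.23, edgeR adjusted p = 0.00446) in all 6 leave-one-out fits (highest adjusted p = 0.0348). Foxq1, the gene of the satin coat, was read at 5.39 and 3.71 TPM for WT, 1.82 and 6.88 for LEF1cKO and 12.2 and 11.8 for the double knockout. Its double knockout libraries were above all others, but the wide spread between the LEF1cKO libraries entered the shared estimate of spread and it did not pass (1.26 ± 0.55, adjusted p = 0.118). It passed without LEF1cKO replicate 1 (adjusted p = 0.0094), without LEF1cKO replicate 2 (0.00956), with no filter (0.0492), by DESeq2 (0.0383) and in a fit of only WT and the double knockout (0.00853).

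Foxi3, which acts in hair placodes and is mutated in hairless dog breeds, was read at 17.3 and 31.7 TPM for WT, 39.3 and 59.7 for LEF1cKO and 32.5 and 59.7 for the double knockout. Both knockouts lay above WT, yet the libraries within a group differed nearly as much as the groups did. The values were 0.93 ± 0.40 in LEF1cKO (edgeR adjusted p = 0.558) and 0.79 ± 0.40 in the double knockout (adjusted p = 0.173; 0.0192 with a block for the replicate number). Of 20 tested hair shaft, root sheath and matrix genes, 13 were lower and 0 higher in the double knockout than in WT past the test, with a median of -3.12, and 8 to 16 fell in the leave-one-out fits (8 without double knockout replicate 1). Dlx3, a homeobox gene of the matrix, went from 112 ± 14.9 to 6.07 ± 0.771 TPM, and Krt28 and Krt73, keratins of the inner root sheath, from 161 ± 20.2 to 4.12 ± 0.728 and from 6.52 ± 0.417 to 0.27 ± 0.127 TPM (SD, n = 2). In LEF1cKO 0 of the 20 passed by edgeR, and 1 fell when no filter was used or without LEF1cKO replicate 1.

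Differentiated epidermal genes were high where Foxn1 was high. Of 17 tested, 13 rose in the double knockout and 3 in LEF1cKO, beside 18% and 0.224% of all genes. The summed level of the 17 was 1439 and 1118 TPM for WT, 3200 and 3185 for LEF1cKO and 12530 and 11950 for the double knockout. Krt78, Krt1 and Krt77, keratins of the suprabasal epidermis, went from 1.16 ± 0.205, 341 ± 37.4 and 59.6 ± 21.3 TPM in WT to 44.4 ± 2.5, 3089 ± 131 and 1666 ± 49.6 in the double knockout (SD, n = 2). Their part in the Foxn1 value was not tested.

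Among the stem cell members, Foxp1 rose modestly and Foxc1 did not pass. Foxp1 stood at 29.8 and 26.4 TPM for WT, 32.6 and 29.8 for LEF1cKO and 38.0 and 41.0 for the double knockout. The double knockout lay above the other groups (0.41 ± 0.11 against WT, edgeR adjusted p = 0.0325), but it did not pass when WT replicate 1 was left out (adjusted p = 0.104), nor without WT replicate 2 (0.246) or replicate 1 or 2 of the double knockout (0.0835 and 0.116), nor with transcript length taken into account (0.0775). Foxp4, a close relative, more than doubled from 14.5 and 15.2 TPM in WT to 34.0 and 33.4, with LEF1cKO at 13.3 and 22.4. That rise (1.05 ± 0.23, adjusted p = 0.0179) was lost without either WT library (adjusted p = 0.088 and 0.0904) or either double knockout library (0.0788 and 0.0703). Foxp2, better known from neurons, was low at 3.51 and 2.13 TPM for WT, 4.34 and 3.09 for LEF1cKO and 4.12 and 2.65 for the double knockout, and its groups overlapped (0.20 ± 0.31 against WT, adjusted p = 0.645).

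Foxp1 was the only called member, among the 7 with a promoter entry, whose window held a TCF/LEF motif. RefSeq windows (GRCm38.p6, 250 bases before to 50 after a start site) were given for 28 of the 44 members and for those 7 of the 11 that passed. They were searched on both strands for the TCF/LEF letters CTTTGAA and CTTTGAT and the forkhead letters TGTTTAC and TGTTTGC, and the letters of these motifs do not contain each other. Of all 32851 windows, 5.14%, 3.73%, 3.65% and 5.07% held them, and among 33 windows of the members 1, 1, 1 and 2 did. The windows of Foxp1 at chr6:99266466-99266765 and chr6:99520944-99521243, both on the minus strand, are shown with the matches in capitals: CTTTGAA read on the opposite strand from base -205 relative to the start, and TGTTTGC from base -167. The Foxn1 window (chr11:78386559-78386858, minus strand) is shown beside them for the hair gene that rose, with none of the 4 motifs. The third Foxp1 window (chr6:99028249-99028548) held none of them either. A match is only a description of the letters.
Foxp1, middle start: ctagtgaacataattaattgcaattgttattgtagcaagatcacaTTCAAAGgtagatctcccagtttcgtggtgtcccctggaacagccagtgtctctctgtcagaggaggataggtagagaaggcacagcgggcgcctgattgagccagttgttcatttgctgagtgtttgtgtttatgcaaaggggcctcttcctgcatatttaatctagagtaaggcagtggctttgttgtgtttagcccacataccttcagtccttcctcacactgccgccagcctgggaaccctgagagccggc
Foxp1, upstream start: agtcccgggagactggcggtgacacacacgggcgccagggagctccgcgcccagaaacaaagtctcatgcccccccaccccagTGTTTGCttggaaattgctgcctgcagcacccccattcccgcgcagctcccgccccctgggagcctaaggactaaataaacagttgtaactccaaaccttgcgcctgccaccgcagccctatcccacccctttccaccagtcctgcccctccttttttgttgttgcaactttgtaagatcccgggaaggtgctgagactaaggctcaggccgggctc
Foxn1: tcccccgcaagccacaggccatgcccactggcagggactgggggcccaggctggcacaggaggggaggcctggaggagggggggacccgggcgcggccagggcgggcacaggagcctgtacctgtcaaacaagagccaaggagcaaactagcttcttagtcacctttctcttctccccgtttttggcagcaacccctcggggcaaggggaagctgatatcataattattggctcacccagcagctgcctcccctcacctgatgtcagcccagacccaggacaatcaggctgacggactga

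Foxc1, which holds bulge stem cells quiescent, was read at 17.7 and 18.1 TPM for WT, 7.54 and 26.2 for LEF1cKO and 21.6 and 31.6 for the double knockout. The LEF1cKO libraries lay on either side of WT, and the double knockout was above WT without passing (0.43 ± 0.51, edgeR adjusted p = 0.535). Against LEF1cKO the value was 0.62 ± 0.51 (adjusted p = 0.398), and it was 1.70 ± 0.27 without LEF1cKO replicate 2 (adjusted p = 0.0125). In LEF1cKO against WT, the sign depended on the library, at -0.19 ± 0.51 with both and 0.42 without LEF1cKO replicate 1.

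Foxc1 and Foxq1 sit in a cluster on chromosome 13 with Foxf2 between them, with start sites 69.7 kb (Foxq1 to Foxf2) and 181 kb (Foxf2 to Foxc1) apart. Both were lowest of all 6 libraries in LEF1cKO replicate 1, and Foxf2 was at most 0.08 TPM anywhere. Of 14 tested bulge genes, 6 rose and 6 fell in the double knockout, where 18% of all genes rose and 19.6% fell. Krt24 and Bmp2, a bulge keratin and a BMP ligand gene tied to quiescence, rose from 0.14 ± 0.0566 to 2.68 ± 0.0849 TPM and from 3.81 ± 0.672 to 15.7 ± 0.347, while the repressor gene Tcf7l1 fell from 32.9 ± 1.06 to 11.4 ± 0.354 TPM (SD, n = 2). Those counts dropped to 2 rises and 1 fall without WT replicate 2, 3 and 2 without WT replicate 1, and 3 and 4 without double knockout replicate 1.

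The FoxO members, effectors of insulin and growth factor signalling, differed among themselves. Foxo6 was read at 23.7 and 26.2 TPM for WT, 25.8 and 35.4 for LEF1cKO and 12.1 and 19.5 for the double knockout. Its double knockout libraries were below all others, and it narrowly missed against WT (-0.79 ± 0.25, edgeR adjusted p = 0.0522). It passed without double knockout replicate 2 (adjusted p = 0.0218), by DESeq2 (0.0153), with no filter (0.0209) and with the replicate block (0.0196). Foxo1 stood at 15.8 and 15.8 TPM for WT, 18.5 and 15.7 for LEF1cKO and 13.6 and 14.5 for the double knockout. Those were the lowest libraries (-0.31 ± 0.13, adjusted p = 0.117), and they passed without LEF1cKO replicate 2 (adjusted p = 0.0374) and in a fit of only those groups (0.0363).

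Foxo3 and Foxo4 overlapped between WT and the double knockout. Foxo3 was read at 19.7 and 22.3 TPM for WT, 31.9 and 22.4 for LEF1cKO and 20.7 and 29.5 for the double knockout (0.16 ± 0.24 against WT, edgeR adjusted p = 0.629). Foxo4 was at 25.7 and 25.7, 22.6 and 24.7, and 21.4 and 27.2 TPM (-0.23 ± 0.11, adjusted p = 0.149). Of 20 FoxO target genes 7 rose and 3 fell in the double knockout, with a median of 0.09, where 18% of all genes rose and 19.6% fell. Cdkn1a, the p21 inhibitor gene, and Klf2, a zinc finger gene, rose from 88.0 ± 3.95 to 262 ± 33.0 TPM and from 12.2 ± 1.17 to 40.9 ± 11, and Sesn3, a stress-induced sestrin gene, fell from 23.2 ± 2.03 to 10.2 ± 0.799 TPM (SD, n = 2). The counts were 2 rises and 1 fall without WT replicate 1 or without WT replicate 2, and 3 and 1 without double knockout replicate 1. Of 17 FoxO regulators 2 rose and 5 fell, again beside 18% and 19.6% of all genes. The named ones are Xpo1, a nuclear exporter gene (111 ± 1.37 to 73.3 ± 0.325 TPM), Akt1, a kinase gene (170 ± 8.92 to 138 ± 2.88), and Pik3r1, a phosphatidylinositol kinase subunit gene that rose (36.5 ± 2.31 to 78.1 ± 16.7). The falls came to 1 without either WT library or without double knockout replicate 1, to 2 without double knockout replicate 2, and to 2 with RLE size factors, either other filter, either limma fit, the replicate block or the length offset. The rises came to 0 without either WT library.

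Foxk1 and Foxk2, paralogs that bind chromatin regulators, moved in opposite directions. Foxk1 was read at 15.2 and 15.3 TPM for WT, 19.2 and 21.9 for LEF1cKO and 28.5 and 28.7 for the double knockout, so the 3 groups were separate. It rose in the double knockout against WT (0.76 ± 0.09, edgeR adjusted p = 0.00409; highest of 6 leave-one-out fits 0.0461) and had 0.35 ± 0.09 in LEF1cKO (adjusted p = 0.271). Foxk2 was at 49.4 and 49.8 TPM for WT, 54.6 and 44.0 for LEF1cKO and 38.0 and 34.7 for the double knockout, which lay below the rest. Its fall (-0.61 ± 0.14, adjusted p = 0.0174) did not pass without WT replicate 1 or 2 (adjusted p = 0.104 and 0.0975), nor without replicate 1 or 2 of the double knockout (0.077 and 0.0721).

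Foxj2 and Foxn3 rose among the widely expressed members, and their close relatives Foxj3 and Foxn2 did not pass. Foxj2 stood at 9.87 and 10.4 TPM for WT, 11.3 and 13.6 for LEF1cKO and 20.7 and 20.8 for the double knockout (0.84 ± 0.11 against WT, edgeR adjusted p = 0.00486; highest of 6 leave-one-out fits 0.0423). Foxj3 was at 25.7 and 25.3, 33.9 and 26.3, and 30.8 and 29.3 TPM (0.10 ± 0.14, adjusted p = 0.595). WT was thus the lowest group for both genes, with LEF1cKO close above it. The double knockout lay far above both other groups for Foxj2 and overlapped LEF1cKO for Foxj3.

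Foxn3, a repressor named for a checkpoint function, was read at 23.6 and 27.1 TPM for WT, 32.0 and 28.6 for LEF1cKO and 48.2 and 43.7 for the double knockout. Its rise in counts (0.54 ± 0.12, edgeR adjusted p = 0.0169) was lost without either WT library (adjusted p = 0.111 and 0.108) or either double knockout library (0.0737 and 0.0581). TPM also depends on length. The mean transcript length that the authors' estimate assigned to Foxn3 was 2522 and 2257 bases for WT, 2243 and 2225 for LEF1cKO and 2065 and 2170 for the double knockout. The assigned length was thus shortest in the double knockout. Foxn2 stood at 11 and 12.5, 13.6 and 13.6, and 17.7 and 13.7 TPM (0.27 ± 0.14, adjusted p = 0.182). Foxp2 had the widest range of assigned length among tested members, from 1382 to 2146 bases. The sign of its change depended on whether length was used in LEF1cKO against WT and in the double knockout against LEF1cKO.

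Foxd1, Foxc2, Foxs1, Foxd3, Foxp3 and Foxj1, known from cells outside the follicle epithelium, were read at low levels. Foxd1, known from stromal cells of the kidney, was read at 0.14 and 0.08 TPM for WT, 0.17 and 0.18 for LEF1cKO and 1.30 and 0.83 for the double knockout. It was at 75 and 52 expected counts there against 11 and 8 in WT, and rose (3.11 ± 0.45, edgeR adjusted p = 0.00571; highest of 6 leave-one-out fits 0.0498). Of 15 fibroblast and dermal papilla markers 11 rose and 1 fell, and 3 rose without double knockout replicate 1. Their summed level was 516 and 282 TPM for WT, 579 and 1087 for LEF1cKO and 2544 and 1994 for the double knockout, with 0 of 15 at 0 in any library. Col1a2 and Col1a1, collagen genes, went from 31.3 ± 19.4 and 29.1 ± 19.7 TPM to 416 ± 59.1 and 396 ± 49.1, and Vim, the vimentin gene, from 145 ± 43.5 to 492 ± 151 (SD, n = 2). Over all genes 18% rose and 19.6% fell. The fall in the list was Vcan, from 21.9 ± 2.02 to 7.96 ± 2.99 TPM. Sox2, Corin and Alx4 of the list did not pass against WT (edgeR adjusted p = 0.0677, 0.528 and 0.165). The part of fibroblasts and dermal papilla cells in the Foxd1 value was not tested.

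Foxc2, a gene of lymphatic vessels, stood at 0.10 and 0.10 TPM for WT, 0.07 and 0.15 for LEF1cKO and 0.50 and 0.26 for the double knockout. The double knockout was above the others and passed against WT (1.79 ± 0.55, edgeR adjusted p = 0.0466), but in 0 of 6 leave-one-out fits (adjusted p = 0.0533 to 0.228), nor with DESeq2 (0.106). Gm20388, a gene model spanning Foxf1, Foxc2 and Foxl1 on the same strand, was read at 13.6 to 27.5 TPM, so reads of Foxc2 can be split with it. Foxs1, known from pericytes, was at 0.26 and 0, 0.13 and 0.07, and 0.89 and 0.28 TPM (2.04 ± 1.25, adjusted p = 0.244). That value ran from 0.99 without WT replicate 2 to 7.42 without WT replicate 1, where the remaining WT library is at 0, so no size can be given for it. Of 15 endothelial, lymphatic and mural markers 13 rose, and 4, 4 and 2 did without double knockout replicate 1, WT replicate 1 and WT replicate 2. They summed to 77.8 and 62.5 TPM for WT, 71.6 and 85.6 for LEF1cKO and 329 and 167 for the double knockout, with 0 of 15 at 0 in any library. Myh11 of smooth muscle went from 1.26 ± 0.686 to 29.3 ± 17.8 TPM, Cldn5 of endothelium from 0.685 ± 0.304 to 7.92 ± 4.99, and Flt4 of lymphatic endothelium from 0.09 ± 0.0141 to 2.54 ± 1.95 (SD, n = 2). Foxc2, Foxs1 and these sums were all higher in double knockout replicate 1 than in replicate 2, and their relation was not tested.

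Foxd3, a neural crest gene of melanocyte and Schwann cell precursors, had its low point in LEF1cKO. It was read at 2.17 and 2.16 TPM for WT, 1.0 and 0.70 for LEF1cKO and 2.75 and 1.61 for the double knockout. LEF1cKO lay below both other groups, at -1.42 ± 0.36 against WT (edgeR adjusted p = 0.258; 0.0343 by DESeq2). Melanocyte and Schwann markers summed to 672 and 475 TPM for WT, 452 and 330 for LEF1cKO and 496 and 659 for the double knockout, with 0 of 14 at 0. In LEF1cKO 0 of those 14 passed by edgeR and 1 fell by DESeq2. In the double knockout 6 rose against WT (2 without WT replicate 2, 3 without WT replicate 1 or double knockout replicate 1), with the myelin gene Mbp going from 4.01 ± 0.693 to 37.3 ± 13.5 TPM and the receptor gene Erbb3 from 36.2 ± 0.587 to 58.6 ± 7.64 (SD, n = 2). Their part in the Foxd3 value was not tested.

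Foxp3, the factor of regulatory T cells, was at 0.10 and 0.11 TPM for WT, 0.26 and 0.12 for LEF1cKO and 0.13 and 0.21 for the double knockout (0.59 ± 0.61 against WT, edgeR adjusted p = 0.484). Of 16 tested immune markers 10 rose, and 8 without double knockout replicate 1. Their sums were 85.7 and 36.5 TPM for WT, 143 and 242 for LEF1cKO and 687 and 645 for the double knockout, with 1 of 17 at 0 in LEF1cKO replicate 1. Itgam and Csf1r of myeloid cells went from 0.385 ± 0.12 and 2.08 ± 1.26 to 5.34 ± 0.58 and 27.6 ± 7.99 TPM, and Cd207 of Langerhans cells from 0.98 ± 0.198 to 7.94 ± 1.98 (SD, n = 2). Most of each sum came from Cd74, at 548 and 536 TPM in the double knockout. Of the T cell genes, Cd4 rose against WT (3.67 ± 0.78, edgeR adjusted p = 0.0153). Cd3e, Cd8a and Il2ra were higher without passing (adjusted p = 0.347, 0.389 and 0.0781). Cd3d, Trac and Trdc had negative values, -0.84, -0.92 and -0.07, and did not pass (0.206, 0.148 and 0.907). Foxp3 overlapped between LEF1cKO and the double knockout, while the marker sums did not. Their part in the Foxp3 values was not tested.

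Foxj1, the ciliated cell factor, was read at 0.22 and 0.29 TPM for WT, 0.26 and 0.10 for LEF1cKO and 0.03 and 0.11 for the double knockout (-1.98 ± 0.77, edgeR adjusted p = 0.0906). The double knockout was below WT, with 2 and 7 expected counts against 19 and 29. Foxd2 reached at most 0.63 TPM and Foxr1 at most 0.35, and neither passed in any comparison by edgeR. Of 12 tested sweat and sebaceous gland genes 3 rose (18% of all genes did), Atp1b1, Aqp5 and Scd1, and 1 did without either WT library or without double knockout replicate 1.

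**Figure D4:**
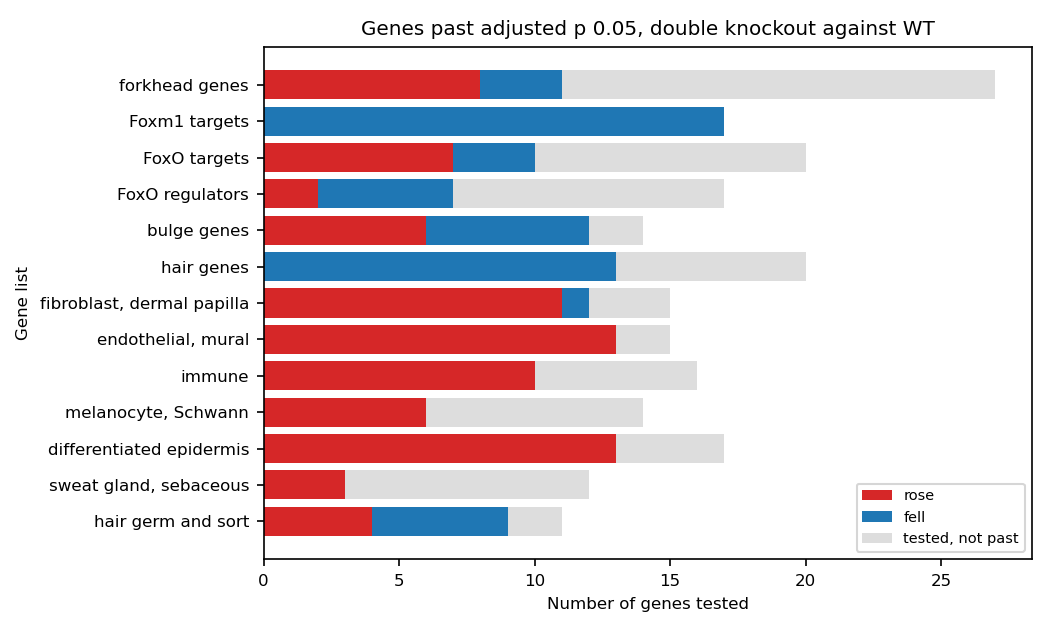
Number of tested genes that rose (red), fell (blue) or did not pass (grey) in the double knockout against WT for the forkhead genes and 12 companion lists. All 17 Foxm1 targets fell, 13 of 20 hair genes fell, and the lists of other cell types hold rises apart from 1 fall in the fibroblast list.

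The double knockout was also set against LEF1cKO, from which it differs by the Tcf7 allele. Foxd1 (2.55 ± 0.43, edgeR adjusted p = 0.0152), Foxn1 (1.35 ± 0.22, 0.0144), Foxd3 (1.29 ± 0.37, 0.0488), Foxp4 (0.89 ± 0.23, 0.0404), Foxj2 (0.69 ± 0.11, 0.0141), Foxn3 (0.45 ± 0.12, 0.0403) and Foxk1 (0.42 ± 0.09, 0.0257) rose. The falls were Foxe1 (-5.74 ± 0.93, adjusted p = 0.0141, or -4.73 without LEF1cKO replicate 1 and -8.5 without double knockout replicate 2), Foxm1 (-1.0 ± 0.13, 0.0113), Foxo6 (-1.0 ± 0.25, 0.0369) and Foxk2 (-0.57 ± 0.14, 0.0312). Each of these 11 had both double knockout libraries on 1 side of both LEF1cKO libraries. Foxp1 and Foxc2 had 0.24 ± 0.11 (adjusted p = 0.159) and 1.68 ± 0.55 (0.0699).

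Leaving out double knockout replicate 1 removed all 11 of those calls, leaving 0 rises and 0 falls with adjusted p from 0.078 for Foxm1, Foxn1 and Foxj2. Foxe1, Foxm1 and Foxj2 passed in every other leave-one-out fit. Foxd1 and Foxn1 were also lost without LEF1cKO replicate 1 (adjusted p = 0.0653 and 0.057). Foxp4 passed without either LEF1cKO library and was otherwise lost (adjusted p = 0.0733 to 0.147). Foxn3 passed only without LEF1cKO replicate 1, Foxk1 and Foxk2 only without LEF1cKO replicate 2, Foxo6 and Foxd3 only without double knockout replicate 2, with adjusted p up to 0.145, 0.0944, 0.121, 0.118 and 0.189 in the other fits.

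Against WT, 6 of the 11 called members passed with any single library left out, namely Foxk1, Foxn1, Foxm1, Foxj2, Foxe1 and Foxd1. The number of rises fell from 8 to 4 without either library of WT or either library of the double knockout.

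**Figure D5:**
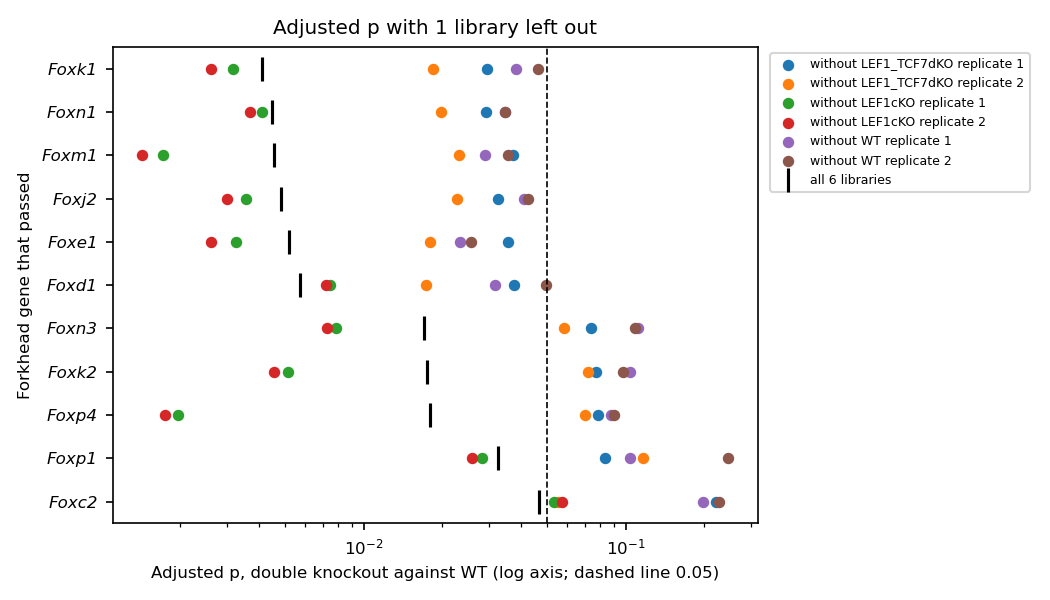
Adjusted p (log axis, edgeR) of the 11 forkhead genes that passed in the double knockout against WT, with all 6 libraries (black tick) and with each library left out (coloured points); the dashed line is 0.05. Foxk1, Foxn1, Foxm1, Foxj2, Foxe1 and Foxd1 have every point left of the line, and Foxc2 has 0 of 6 leave-one-out points left of it.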

How the data were processed

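RNA was measured in 6 libraries. Per the submitters' processing notes, Bowtie2 2.2.9, RSEM 1.2.30 and mm10 were used; the gene annotation is not stated in those notes or the file headers. Expected counts and TPM are the authors' RSEM estimates per gene, per the file headers, with shared reads split by the model; the deposited FPKM values were used in no test. Transcript lengths are those deposited with them. The deposited series table of TPM differed from the sample files by 0.

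Expected counts were rounded and fitted over all libraries with edgeR 4.0.16 (R 4.3.3): TMM factors 0.962 to 1.04, filterByExpr, 19640 genes, quasi-likelihood test, Benjamini-Hochberg adjustment at 0.05, 3 residual degrees of freedom. The code was tested on simulated data. Depth intervals cover counting error only. Genes were matched by identifier to GENCODE M21 (all 44 members, 98.9% of genes). Alternatives were other scaling, filters, DESeq2 1.42.0, limma 3.58.1 on log2(TPM + pseudocount) with 1 and 0.1 as pseudocounts, fits of just the compared groups, a replicate block, transcript length as an offset (chosen after seeing the data) and leaving out each library, where the lone library left in a group borrows the spread of the rest.

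The members and lists were chosen with earlier results of these data known. Members with a group mean of 1 TPM or more, or past the threshold, were named with every value (Foxd2, Foxr1, Foxj1, Foxp3 and Foxs1 are below it), the others by range, and from each list up to 3 genes with the smallest p in the double knockout against WT. "Rose" and "fell" mean passing the edgeR test. Some items that this rule would name are not reported here.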

Additional observations from a re-analysis of the deposited data

How the results depend on the processing

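In LEF1cKO against WT the count of forkhead rises was 0 under all 15 alternatives, and the count of falls was 0 in all but DESeq2, which gave 1. Against WT the double knockout's 8 rises became 5 with a filter of 10 CPM in 2 libraries, where 17 members were fitted. Against LEF1cKO its 7 rises and 4 falls became 3 and 2 in a fit of only the 2 groups compared, and 2 fell with limma on log2(TPM + 0.1); the cause was not tested. With 1 library left out the double knockout gave 4 to 8 rises and 2 to 4 falls against WT, and 0 to 7 rises and 0 to 4 falls against LEF1cKO; fewer samples were fitted. Deviations of same-numbered libraries correlated at -0.04, 0.06 and -0.03 over the tested genes. Such values show no strong shared shift, but they cannot tell whether the replicate numbers in the titles pair the libraries. With the replicate block 8 rose and 4 fell against WT, 5 rose and 4 fell against LEF1cKO, and 0 and 0 passed in LEF1cKO. Values that changed sign did not pass the test. For Foxj3 in the double knockout against LEF1cKO they were 0.0703 with the filter of 10 CPM and 0.00753 and 0.00807 with limma (pseudocounts 1 and 0.1), and for Foxo4 0.0831, 0.0277 and 0.0284. For Foxp2 limma gave 0.315 and 0.408 and the length offset 0.316 in LEF1cKO against WT, and -0.112, -0.144 and -0.193 in the double knockout against LEF1cKO. With 1 library left out, log2 fold changes in LEF1cKO against WT crossed 0 for Foxc1 -1.28 to 0.423, Foxc2 -0.413 to 0.47, Foxj3 -0.0442 to 0.335, Foxk2 -0.225 to 0.125, Foxm1 -0.215 to 0.123, Foxn3 -0.0515 to 0.218, Foxo1 -0.135 to 0.195, Foxo3 -0.0103 to 0.568, Foxp2 -0.267 to 0.158, Foxp3 -0.0263 to 1.34, Foxp4 -0.268 to 0.49, Foxq1 -1.35 to 0.474 and Foxs1 -1.4 to 5.02. With 1 library left out, log2 fold changes in the double knockout against WT crossed 0 for Foxd3 -0.521 to 0.172, Foxo3 -0.14 to 0.428, Foxp2 -0.0953 to 0.45 and Foxr1 -0.639 to 0.452. With 1 library left out, log2 fold changes in the double knockout against LEF1cKO crossed 0 for Foxd2 -0.464 to 0.481, Foxi3 -0.696 to 0.268, Foxj3 -0.244 to 0.147, Foxn2 -0.0179 to 0.265, Foxo3 -0.445 to 0.177, Foxo4 -0.166 to 0.087, Foxp2 -0.0483 to 0.508 and Foxp3 -0.761 to 0.62.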
